A study of Mus musculus with 9 samples.

Results

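The regulators of mitochondrial gene expression described here are 10 genes: the PGC-1 coactivators Ppargc1a and Ppargc1b, the estrogen-related receptors Esrra, Esrrb and Esrrg, the peroxisome proliferator-activated receptors Ppara and Ppard, their dimer partner Rxra, the transcription factor Nrf1 and the muscle regulator Perm1. They were chosen by gene name in the deposited table of fragment counts, which lists 55401 genes. All 10 were found, and all 10 were among the 16762 genes with enough counts to be tested.

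The counts come from RNA-seq of primary neonatal mouse ventricular myocytes (NMVMs), heart muscle cells isolated from wild-type C57BL/6J pups aged 1 day, with 3 libraries in each of 3 groups. Control cultures stayed in normal oxygen in complete DMEM with 10% fetal bovine serum. Hypoxia cultures were washed, given DMEM lacking both glucose and serum, and kept for 6 h in a closed chamber with an oxygen absorber (AnaeroPack-MIC). Hypoxia + rSRGN cultures were handled like the hypoxia cultures and also received recombinant serglycin (rSRGN), a protein that carries glycosaminoglycan chains, for those 6 h. Low oxygen and the change of medium came together, so their effects cannot be told apart in any comparison with control. The labels do not say whether the libraries of a group came from separate isolations, so the p-values measure only the spread between these libraries, which may be technical.

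The PGC-1 proteins do not bind DNA themselves. They are recruited by nuclear receptors and other factors, switch on the genes of fatty acid oxidation, the tricarboxylic acid cycle and the respiratory chain, and are abundant in tissues with a high demand for ATP such as the heart. Estrogen-related receptors (ERRs) bind the genes of oxidative metabolism without a known hormone, PPARs respond to fatty acids as heterodimers with retinoid X receptors such as RXRA, NRF1 acts on nuclear genes for respiratory chain subunits and mitochondrial import, and PERM1 is a striated muscle protein induced by PGC-1 and ERR.

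The stretch of 250 bases before the annotated start is shown for 5 of the regulators, as examples of the different changes described in the next paragraphs: Perm1, Ppargc1a and Ppara were far lower in hypoxia, Esrra was less strongly lower and Ppard was higher. The sequences are from RefSeq (GRCm38.p6), 5′ to 3′ on the strand of the gene. Capitals mark the ERR half-site AAGGTCA, the NRF1 core GCATGCGC or the core of the hypoxia-inducible factor site, ACGTG, on either strand.
Perm1, chr4:156215677-156215926, plus strand: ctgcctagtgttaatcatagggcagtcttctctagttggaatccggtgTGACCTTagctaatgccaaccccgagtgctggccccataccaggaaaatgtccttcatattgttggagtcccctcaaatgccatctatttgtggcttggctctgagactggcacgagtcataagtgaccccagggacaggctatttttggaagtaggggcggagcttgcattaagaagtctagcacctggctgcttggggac
Ppargc1a, chr5:51567726-51567975, minus strand: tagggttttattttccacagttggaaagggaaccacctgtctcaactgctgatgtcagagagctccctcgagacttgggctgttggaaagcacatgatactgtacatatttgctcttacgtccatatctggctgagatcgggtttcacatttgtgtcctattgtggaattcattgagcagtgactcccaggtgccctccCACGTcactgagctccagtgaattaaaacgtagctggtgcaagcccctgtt
Ppara, chr15:85735526-85735775, plus strand: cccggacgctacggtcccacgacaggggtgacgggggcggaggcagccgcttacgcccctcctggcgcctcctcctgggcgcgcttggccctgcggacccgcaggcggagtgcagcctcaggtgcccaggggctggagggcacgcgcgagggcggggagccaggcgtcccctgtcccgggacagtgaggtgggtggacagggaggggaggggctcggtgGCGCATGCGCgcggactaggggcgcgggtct
Ppard, chr17:28232504-28232753, plus strand: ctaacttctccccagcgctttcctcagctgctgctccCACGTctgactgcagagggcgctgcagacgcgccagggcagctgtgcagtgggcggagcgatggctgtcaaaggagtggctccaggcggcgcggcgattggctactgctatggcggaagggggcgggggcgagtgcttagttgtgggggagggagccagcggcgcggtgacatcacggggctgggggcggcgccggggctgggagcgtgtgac
Esrra, chr19:6921809-6922058, minus strand: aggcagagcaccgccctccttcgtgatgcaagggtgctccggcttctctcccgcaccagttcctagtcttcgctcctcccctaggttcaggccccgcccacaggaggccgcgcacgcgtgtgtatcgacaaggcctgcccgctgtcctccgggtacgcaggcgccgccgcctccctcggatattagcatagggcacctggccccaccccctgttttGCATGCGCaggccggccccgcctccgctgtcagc

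Promoter windows of 300 bases (250 before to 50 after the start) were found for 9 of the 10 genes, all but Ppargc1b, with 15 windows in all, and both strands were searched. The ERR half-site AAGGTCA was in the windows of Perm1 (202 to 196 bases before the start) and Rxra (49 to 43 bases before it), and in 4.72% of all 32851 windows. The NRF1 core GCATGCGC was in Esrra (34 to 27 bases before the start) and in Ppara, where matches on the 2 strands overlap between 31 and 22 bases before the start, and in 2.71% of all windows. ACGTG was in Ppargc1a (51 to 47 bases before the start), Ppard (213 to 209 bases before it) and Esrrg, where it crosses the start, and in 19.6% of all windows. The cAMP response element TGACGTCA was in 0 of the 15 windows and in 1.79% of all windows. These are matches of letters only.

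Total counts were 21669017 to 22781557 in the control, 16583985 to 18148474 in the hypoxia and 16640239 to 20826701 in the hypoxia + rSRGN libraries, so control was the deepest group. Levels are given as counts per 1000000 counted fragments (CPM) scaled by TMM, the trimmed mean of M values, which adjusts the library sizes for differences in composition. The cultures held the transcripts of heart muscle cells, with the myosin heavy chain Myh6 at a mean of 17931 CPM in control, and those of fibroblasts, with the collagen chain Col1a1 at 3593 CPM. The summed level of 12 cardiomyocyte markers was 44589 to 54653 CPM in control, 3942 to 6122 in hypoxia and 7794 to 8370 in hypoxia + rSRGN. The summed level of 9 fibroblast markers was 8828 to 10409, 17353 to 20153 and 19247 to 19816 CPM in the same order. In bulk RNA, fewer cells of a type and less RNA per cell cannot be told apart, and the part of these markers in the regulators' differences was not tested.

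The first comparison asks which regulators differed after hypoxia without glucose and serum. In hypoxia, 7 of the 10 regulators fell and 1 rose (edgeR's quasi-likelihood test, Benjamini-Hochberg adjusted p below 0.05 and at least 1.5-fold). Both coactivators, Esrra, Esrrg, Ppara and Perm1 were lower, by between 4.05-fold and 18.2-fold. The 7th was Esrrb, which passed the filter on low counts only through the control libraries. Without it 6 of 9 fell, with a median log2 fold change of -3.31. Ppard, the PPAR of many tissues, was 1.54-fold higher. Nrf1 and Rxra did not pass. Over all genes tested, 25.1% were called lower and 26.4% higher, and the median log2 fold change was 0.05, against -3.35 for the 10 regulators. The control and hypoxia libraries did not overlap for 9 of the 10 genes, all but Nrf1, and for 73% of all genes tested.

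**Figure D1:**
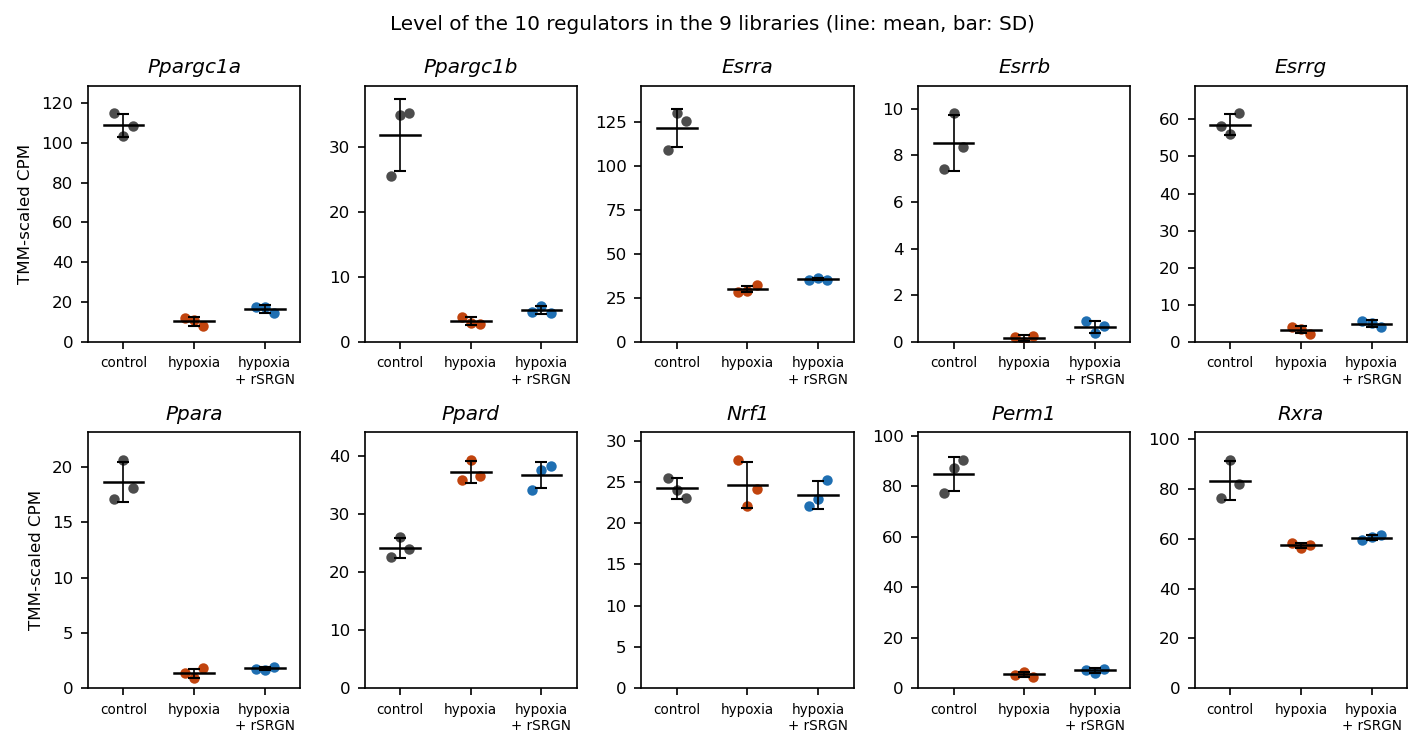
TMM-scaled CPM (vertical axis, from 0) of each regulator in the control, hypoxia and hypoxia + rSRGN libraries, with a point per library, a line at the mean and a bar for the SD of 3 libraries. The hypoxia points lie far below the control points for 7 genes, above them for Ppard and among them for Nrf1.

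Ppargc1a encodes PGC-1α, the coactivator that is induced by cold, exercise and fasting. It had 115, 103 and 109 CPM in the control libraries, 12.1, 10.9 and 7.94 in the hypoxia libraries, and 17.6, 17.6 and 14.3 in the hypoxia + rSRGN libraries. Every hypoxia library lay under every other one, at a mean of 9.48% of the control level. The log2 fold change was -3.40 ± 0.121 (SE, n = 3 against 3, edgeR adjusted p = 1.95e-16), and 448 of the 16762 genes tested, 2.67%, had one as low or lower.

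Ppargc1b encodes the related PGC-1β, which supports basal mitochondrial content. Its level was 25.5, 34.9 and 35.2 CPM in control, 3.87, 2.95 and 2.78 in hypoxia, and 4.59, 5.54 and 4.38 in hypoxia + rSRGN. The fall was of nearly the same size as that of Ppargc1a, to 10.0% of control, with a log2 fold change of -3.31 ± 0.163 (edgeR adjusted p = 4.49e-14). The 3 control libraries were spread more widely than for Ppargc1a, with replicate 1 the lowest, and still lay above all others.

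Esrra encodes ERRα, a main partner of PGC-1α on the genes of oxidative metabolism. Its level was 109, 130 and 125 CPM in control, 28.6, 29.1 and 32.2 in hypoxia, and 35.3, 36.1 and 35.1 in hypoxia + rSRGN. Of the 7 genes that fell, this one fell least, by 2.02 ± 0.0845 on the log2 scale or 4.05-fold (edgeR adjusted p = 2.69e-15). Its exons share 73 bases, of 4414, with those of Trmt112 on the opposite strand and 91 with the microRNA gene Mir6990, and fragments were counted without regard to strand. The exons of the other 9 regulators overlap no other gene.

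Esrrg encodes ERRγ, which drives the switch of the newborn heart to oxidative metabolism. It was at 58.1, 56.1 and 61.6 CPM in control, 3.97, 3.47 and 2.14 in hypoxia, and 5.72, 5.01 and 3.91 in hypoxia + rSRGN. The log2 fold change was -4.19 ± 0.155 (edgeR adjusted p = 3.70e-16), which leaves 5.45% of the control level. Only 179 of all genes tested, 1.07%, were as low or lower.

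Esrrb, which encodes ERRβ, a receptor better known from pluripotent stem cells, was the scarcest regulator. It had 165, 217 and 173 counts in control, 4, 0 and 4 in hypoxia, and 15, 8 and 13 in hypoxia + rSRGN, which are 7.41, 9.80 and 8.36, then 0.215, 0 and 0.232, then 0.894, 0.385 and 0.687 CPM. Because only the control libraries carried it past the filter, its lower level elsewhere adds no support to the count of regulators that fell. The fitted log2 fold change was -5.77 ± 0.414 (edgeR adjusted p = 2.66e-11) and rests on 8 counts in the 3 hypoxia libraries together.

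The PPAR pair went opposite ways. Ppara, the receptor that drives fatty acid oxidation in heart and liver, had 17.1, 20.6 and 18.1 CPM in control, 1.34, 0.925 and 1.79 in hypoxia, and 1.79, 1.64 and 1.95 in hypoxia + rSRGN. Its log2 fold change was -3.78 ± 0.197 (edgeR adjusted p = 1.20e-13), to 7.27% of control. Ppard, which encodes PPARδ, had 22.6, 26.1 and 24.0 CPM in control, 35.8, 39.4 and 36.7 in hypoxia, and 34.2, 37.7 and 38.3 in hypoxia + rSRGN. The log2 fold change of Ppard was 0.62 ± 0.0940 (edgeR adjusted p = 4.23e-06), which is just past the 1.5-fold limit. It was 0.55 without control replicate 1 and 0.58 without hypoxia replicate 2, both under that limit, and the adjusted p stayed below 0.05. It was also under the limit, at 0.57, with a filter that kept every gene with at least 1 count.

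Rxra, whose product is the dimer partner of both PPARs and of many other receptors, had 76.3, 91.6 and 82.0 CPM in control, 58.2, 56.3 and 57.6 in hypoxia, and 59.4, 60.6 and 61.4 in hypoxia + rSRGN. All hypoxia libraries were under all control libraries, and the log2 fold change of -0.54 ± 0.0776 had an edgeR adjusted p of 2.16e-06. At 1.45-fold it did not reach the limit and was not called.

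Nrf1 was the only regulator whose control and hypoxia libraries overlapped. It had 25.5, 24.0 and 23.1 CPM in control, 27.7, 22.1 and 24.2 in hypoxia, and 22.0, 23.0 and 25.2 in hypoxia + rSRGN. The log2 fold change of hypoxia against control was 0.03 ± 0.104 (95% interval -0.19 to 0.24, edgeR adjusted p = 0.839). A change of 1.5-fold in either direction lies outside that interval.

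Perm1, which is expressed mainly in heart and skeletal muscle, had 77.5, 87.2 and 90.4 CPM in control, 5.43, 6.59 and 4.46 in hypoxia, and 7.27, 6.17 and 7.82 in hypoxia + rSRGN. It fell 15.5-fold, to 6.46% of control, with a log2 fold change of -3.95 ± 0.128 and the smallest edgeR adjusted p among the regulators, 4.58e-17. Over the 12 cardiomyocyte markers the log2 fold changes ran from -4.95 to -2.23, with a median of -3.62. The values of Ppargc1a, Ppargc1b, Esrrg, Ppara and Perm1 lay inside that range, Esrrb lay below it, and Esrra, Rxra, Nrf1 and Ppard lay above it.

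**Figure D2:**
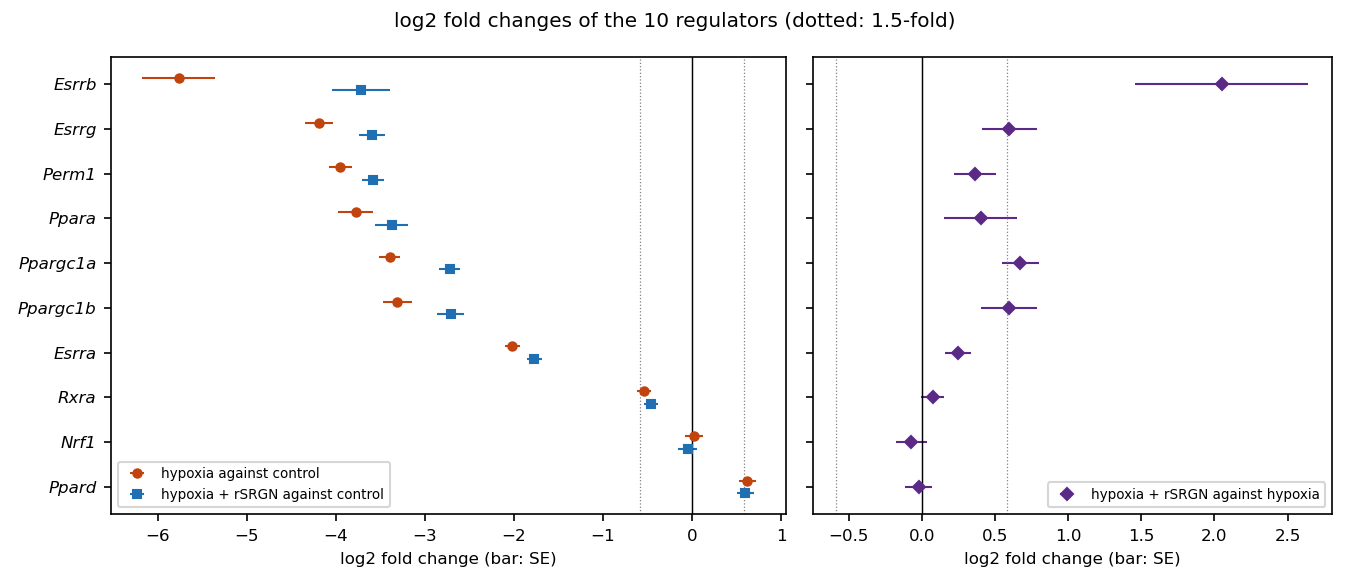
log2 fold changes (horizontal axis, points) with their SE (bars) of the 10 regulators, for hypoxia and hypoxia + rSRGN against control (left) and for hypoxia + rSRGN against hypoxia (right), with dotted lines at 1.5-fold. On the left 7 genes lie far below 0 in both comparisons, and on the right the 4 called genes lie beyond the right dotted line.

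The second comparison asks what rSRGN changed during hypoxia. With rSRGN, 4 of the 10 regulators rose against hypoxia, namely both coactivators, Esrrg and Esrrb, whose few counts passed the filter only through control. Without Esrrb 3 of 9 rose, with a median log2 fold change of 0.36. None was called lower by edgeR, with 0 at an unadjusted p below 0.05 and 0 by DESeq2. Over all genes tested, 2.27% were called higher and 0.859% lower, and the median log2 fold change was -0.03, against 0.38 for the regulators. The libraries of the groups did not overlap for 5 genes: Ppargc1a, Ppargc1b, Esrra, Esrrb and Rxra. Over all genes tested 32% did not overlap. DESeq2 called 4 higher as well, and 6 had an unadjusted edgeR p below 0.05.

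Ppargc1a had the smallest p, with a log2 fold change of 0.67 ± 0.128 (1.59-fold, 95% interval 0.41 to 0.94, edgeR adjusted p = 0.00117). Its level rose from 9.48% to 15.2% of control, and 95.9% of all genes tested had a fold change as low or lower. Ppargc1b rose by nearly the same amount, 0.60 ± 0.189 (1.51-fold, 95% interval 0.20 to 0.99, edgeR adjusted p = 0.0335), from 10.0% to 15.2% of control. It was just past the fold limit, and the call was lost in 8 of 17 alternatives, among them library size alone, upper quartile scaling, a fit of only the compared groups and the replicate block.

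Among the ERR genes, Esrrg rose by 0.60 ± 0.187 on the log2 scale (1.51-fold, 95% interval 0.21 to 0.99, edgeR adjusted p = 0.0309), although hypoxia replicate 1, at 3.97 CPM, lay just above hypoxia + rSRGN replicate 3, at 3.91. The Esrrg call was lost in 6 of 17 alternatives, among them library size alone, upper quartile scaling and the fit of only the compared groups. Esrrb rose by 2.05 ± 0.593 (95% interval 0.82 to 3.28, edgeR adjusted p = 0.0185), from a sum of 8 to a sum of 36 counts over 3 libraries each. Esrra was 1.19-fold higher, with all hypoxia + rSRGN libraries above all hypoxia libraries, at a log2 fold change of 0.25 ± 0.0864 that did not pass (95% interval 0.07 to 0.43, edgeR adjusted p = 0.0547).

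The other regulators did not pass. The log2 fold change was 0.40 ± 0.251 for Ppara (95% interval -0.12 to 0.92, edgeR adjusted p = 0.301) and 0.36 ± 0.146 for Perm1 (95% interval 0.06 to 0.67, edgeR adjusted p = 0.0950), and for both the groups overlapped. Rxra was at 0.08 ± 0.0785 (edgeR adjusted p = 0.569), Nrf1 at -0.07 ± 0.105 (0.699) and Ppard at -0.02 ± 0.0926 (0.918). For Ppard the 95% interval ran from -0.21 to 0.17, so a change of 1.5-fold lies outside it.

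The calls with rSRGN depend on single libraries. The count of 4 was 1 without hypoxia replicate 3 (Esrrb remained), 1 without hypoxia + rSRGN replicate 1 (Ppargc1a remained), 2 without hypoxia replicate 2 (Ppargc1a and Esrrg) and 2 without hypoxia + rSRGN replicate 2 (Ppargc1a and Esrrb). Hypoxia replicate 3 had the lowest level of Ppargc1a, Ppargc1b and Esrrg of all 9 libraries. The 12 cardiomyocyte markers had log2 fold changes of 0.23 to 1.03 in the same comparison, with a median of 0.78 and 10 called higher, beside 2.27% of all genes tested. The values of Ppargc1a, Ppargc1b, Esrra, Esrrg, Ppara and Perm1 lay within that range, Esrrb lay above it and Ppard, Nrf1 and Rxra below it.

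The third comparison sets hypoxia + rSRGN against control, and shares its libraries with the other comparisons. It called 7 regulators lower, 6 without Esrrb, and 1 higher, beside 24.7% and 24.1% of all genes tested, with a median log2 fold change of -2.72 for the regulators and 0.01 for all genes. Without Esrrb the median of the regulators was -2.71. The fold differences were 6.60 for Ppargc1a, 6.55 for Ppargc1b, 3.41 for Esrra, 12.04 for Esrrg, 10.4 for Ppara and 12.02 for Perm1, all lower, with edgeR adjusted p-values of at most 5.73e-13. Esrrb was 13.2-fold lower, but it passed the filter only through control, so its lower level adds no support. Ppard was 1.52-fold higher (edgeR adjusted p = 7.01e-06), and under the limit, at log2 fold changes of 0.54 to 0.58, without control replicate 1 or 3, without hypoxia + rSRGN replicate 2 or 3, and with the filter of at least 1 count. With rSRGN each coactivator stood at 15.2% of its control mean, Esrra at 29.3%, Ppara at 9.63% and Perm1 at 8.33%.

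Levels can be compared between genes only per length, here as CPM per kilobase of exon. In control the order of the mean level per kilobase was Esrra (27.5), Perm1 (21.8), Ppargc1a (16.5), Rxra (13.2), Esrrg (9.44), Ppargc1b (7.98), Ppara (4.86), Ppard (3.23), Nrf1 (2.35) and Esrrb (1.41), and the libraries of no 2 neighbours overlapped. In hypoxia the order began with the genes that had not fallen or had fallen least: Rxra (9.10), Esrra (6.79), Ppard (4.96) and Nrf1 (2.40). They were followed by Ppargc1a (1.56) and Perm1 (1.41), which overlapped, Ppargc1b (0.802), then Esrrg (0.515) and Ppara (0.353), which also overlapped, and Esrrb (0.0246). With rSRGN the same genes led, at 9.59 for Rxra, 8.05 for Esrra and 4.89 for Ppard, and Ppargc1a (2.502) stood next, overlapping with Nrf1 (2.28).

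Among the listed genes of each family, the shares of the receptors in control and hypoxia did not overlap, and those of the 2 coactivators did. The related coactivator gene Pprc1, at means of 7.69, 6.16 and 7.33 CPM per kilobase in control, hypoxia and hypoxia + rSRGN, and Pparg are not in these sums. Of the summed CPM per kilobase of the PPAR pair, Ppara held 60.0% ± 0.620 in control (SD, n = 3), 6.66% ± 2.18 in hypoxia and 8.74% ± 0.780 in hypoxia + rSRGN. Of the ERR sum, Esrra held 71.6% ± 1.69, 92.6% ± 2.25 and 90.0% ± 1.65, and Esrrg 24.7% ± 1.99, 7.08% ± 2.32 and 8.77% ± 1.46, in the same order. Of the PGC-1 pair, Ppargc1a held 67.5% ± 4.94, 66.0% ± 2.95 and 67.3% ± 2.21.

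**Figure D3:**
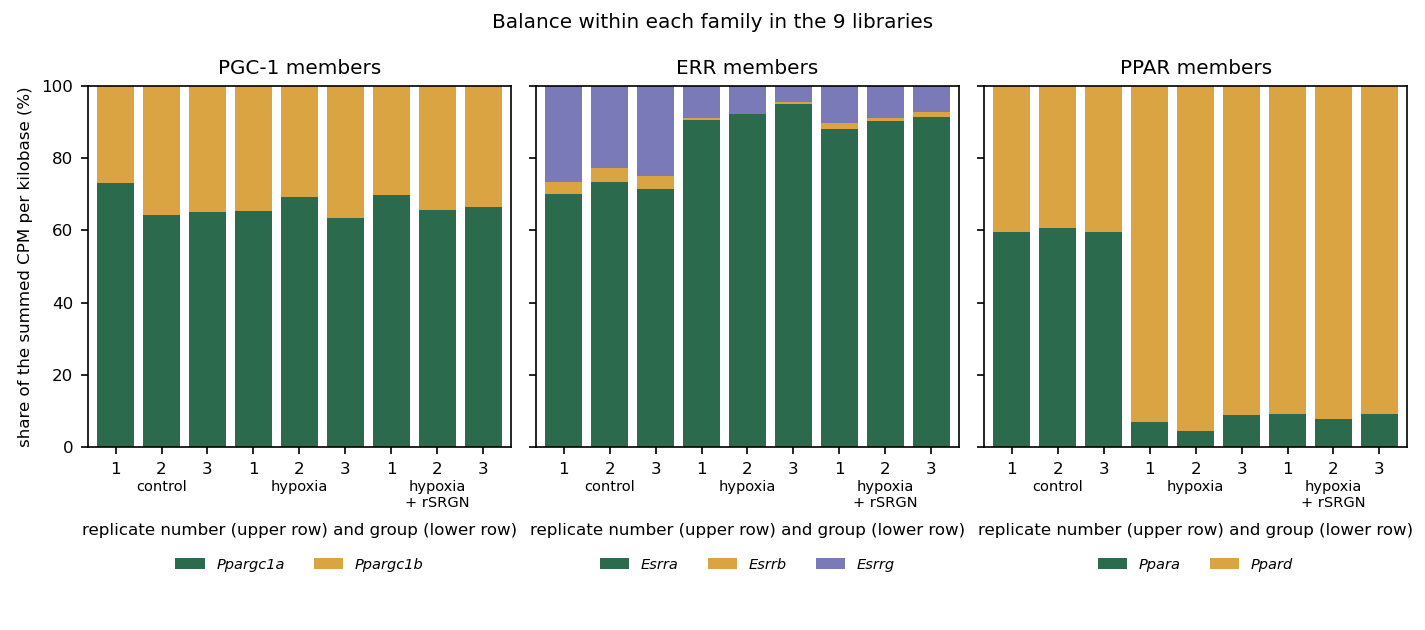
Share of each gene (vertical axis, %) in the summed CPM per kilobase of Ppargc1a and Ppargc1b, of the 3 ERR genes, and of Ppara and Ppard, with a stacked bar for each of the 9 libraries. Ppara holds 60.0% of the PPAR pair in control on average and 6.66% in hypoxia, while the PGC-1 bars divide at similar heights in all libraries.

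The ratios were tested over libraries with an exact two-sided permutation test, which with 3 against 3 libraries cannot give a p under 0.1. The log2 ratio of Ppara to Ppard was 0.59 ± 0.0373 in control and -3.86 ± 0.536 in hypoxia, with no overlap (exact permutation p = 0.1). That of Esrra to Esrrg was 1.54 ± 0.151 and 3.77 ± 0.561, also with no overlap (exact permutation p = 0.1). That of Ppargc1a to Ppargc1b was 1.06 ± 0.334 and 0.96 ± 0.191, with overlap (exact permutation p = 0.7). Between hypoxia and hypoxia + rSRGN all 3 ratios overlapped, with exact permutation p-values of 0.2, 0.5 and 0.5 in the same order.

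The genes around the regulators were described with 5 lists, whose counts in hypoxia stand beside 25.1% of all genes tested called lower and 26.4% called higher. Of 23 ERR targets, genes of the tricarboxylic acid cycle and oxidative phosphorylation together with the ADP/ATP carrier Slc25a4, the creatine kinase Ckmt2 and the fusion gene Mfn2, edgeR called 23 lower and 0 higher in hypoxia (0 at an unadjusted p below 0.05, 0 by DESeq2), with log2 fold changes of -4.25 to -0.87 and a median of -1.63. Ckmt2, the form of that kinase in muscle mitochondria, fell from a mean of 146 to 7.64 CPM (log2 fold change -4.25 ± 0.162, edgeR adjusted p = 5.57e-16). Cox6a2, a muscle subunit of cytochrome c oxidase, fell from 233 to 23.3 CPM (-3.32 ± 0.107, edgeR adjusted p = 4.07e-17).

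Of 26 PPAR targets 25 were tested, and 19 fell and 1 rose, with a median of -1.51. One that fell, Plin5, passed the filter only through control, and without it 18 of 24 fell, with a median of -1.47. Cd36, which takes up fatty acids, fell from 182 to 9.68 CPM (-4.24 ± 0.102, edgeR adjusted p = 6.53e-19), and Acsl1, which activates them with coenzyme A, from 258 to 29.96 CPM (-3.11 ± 0.0911, edgeR adjusted p = 1.07e-17). Fgf21, a secreted metabolic hormone, was the one that rose, from 2.33 to 6.14 CPM (1.40 ± 0.248, edgeR adjusted p = 3.24e-05).

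Of 18 NRF1 targets, 9 fell and 1 rose, with a median of -0.51, while Nrf1 itself was not called. Cox6c, a subunit of cytochrome c oxidase, fell from 388 to 115 CPM (-1.75 ± 0.0946, edgeR adjusted p = 2.26e-13), and Uqcrh, a subunit of the cytochrome bc1 complex, from 314 to 119 CPM (-1.40 ± 0.0714, edgeR adjusted p = 8.14e-14). Polg2, the accessory subunit of the mitochondrial DNA polymerase, rose from 3.55 to 7.28 CPM (1.04 ± 0.188, edgeR adjusted p = 4.23e-05).

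The 20 coregulators of PGC-1 went both ways, with 15% called higher and 40% lower (3 and 8 genes) and a median of -0.29. DESeq2 called 2 higher and 8 lower. Prkaa2, the catalytic subunit of AMP-activated kinase that predominates in muscle, fell from 212 to 16.02 CPM (-3.72 ± 0.114, edgeR adjusted p = 2.17e-17), and the coactivator Ncoa1 from 58.3 to 17.5 CPM (-1.73 ± 0.0926, edgeR adjusted p = 1.87e-13). Sirt1, the deacetylase that acts on PGC-1α, rose from 21.3 to 42.9 CPM (1.01 ± 0.109, edgeR adjusted p = 3.10e-08), and the acetyltransferase Crebbp from 72.4 to 113 CPM (0.64 ± 0.0740, edgeR adjusted p = 8.71e-08). Crebbp was under the fold limit, at 0.57, without control replicate 1, and also under it with the filter of at least 1 count.

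Of 17 partner transcription factors, edgeR called 6 lower and 0 higher (0 at an unadjusted p below 0.05, 0 by DESeq2), with a median of -0.48. Mef2c, a muscle transcription factor that acts on the Ppargc1a promoter, fell from 111 to 48.3 CPM (-1.20 ± 0.0884, edgeR adjusted p = 4.90e-11). Gabpa, the DNA-binding subunit of NRF-2, fell from 75.3 to 39.4 CPM (-0.93 ± 0.0972, edgeR adjusted p = 1.60e-08).

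With rSRGN against hypoxia, where 2.27% of all genes tested were called higher, 13.04% of the ERR targets and 12% of the PPAR targets were. Of the ERR targets 3 rose and 0 fell (0 at an unadjusted p below 0.05, 0 by DESeq2), with a median log2 fold change of 0.09. They were Cox8b (0.80 ± 0.163, edgeR adjusted p = 0.00195), Ckmt2 (0.76 ± 0.176, edgeR adjusted p = 0.00529) and Cox6a2. Of the PPAR targets 3 rose and 0 fell (1 at an unadjusted p below 0.05, 0 by DESeq2), with a median of 0.17. They were Cd36 (0.90 ± 0.108, edgeR adjusted p = 3.91e-05), Pdk4, which restrains glucose oxidation (0.69 ± 0.137, edgeR adjusted p = 0.00169), and Acsl1. The Acsl1 call was lost without hypoxia replicate 1 or 3 and with library size alone or upper quartile scaling, at log2 fold changes down to 0.52. The Pdk4 call was lost without hypoxia replicate 3 or hypoxia + rSRGN replicate 2, at log2 fold changes down to 0.55. Cox6a2 and Acsl1 are named here after their values were seen.

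Prkaa2 was the coregulator that rose with rSRGN, from 16.02 to 26.2 CPM (0.70 ± 0.116, edgeR adjusted p = 0.000388), with 0 called lower (1 at an unadjusted p below 0.05, 0 by DESeq2) and a list median of 0.12. It was not called without hypoxia replicate 3, and without that library 1 of the PPAR targets was called. For the partner transcription factors edgeR called 0 higher (7 at an unadjusted p below 0.05, 0 by DESeq2) and 0 lower (0 and 0), with a median of 0.16. For the NRF1 targets it called 0 higher (2 and 0) and 0 lower (3 and 0), with a median of -0.03.

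**Figure D4:**
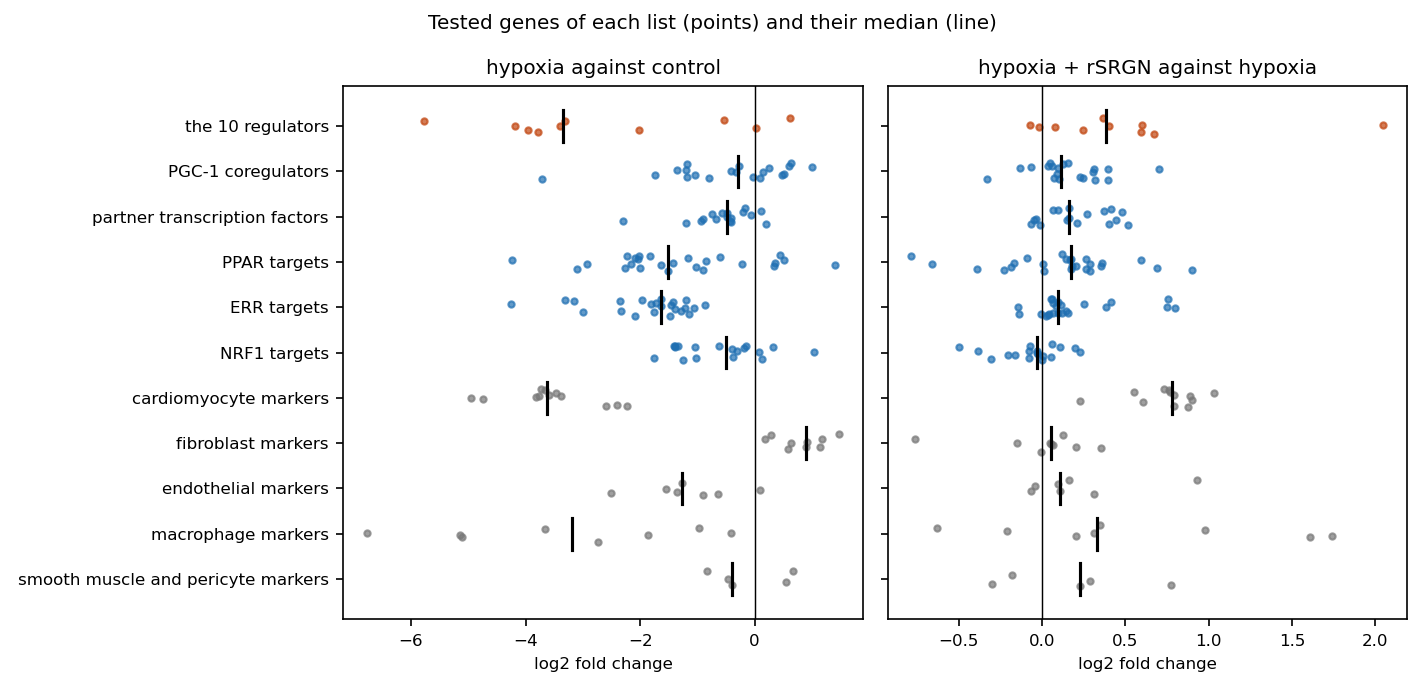
log2 fold changes (horizontal axis) of the tested genes of each list (points, spread vertically for visibility) and the list median (line), for hypoxia against control (left) and hypoxia + rSRGN against hypoxia (right). On the left the medians of the regulators (-3.35), the cardiomyocyte markers (-3.62) and the macrophage markers (-3.20) lie lowest. The last is -1.87 without 5 markers that would not have passed the filter on low counts without the control libraries.

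The marker counts in hypoxia against control stand beside 25.1% of all genes tested called lower and 26.4% called higher. All 12 cardiomyocyte markers were called lower, 6 of 9 fibroblast markers were called higher (median 0.89), 6 of 7 endothelial markers lower (median -1.27, and 5 of 6 with a median of -1.08 without Vwf, which passed the filter only through control), 7 of 8 macrophage markers lower (median -3.20, and -1.87 over the 3 that passed the filter without control, all called lower), and of 5 smooth muscle and pericyte markers 1 was called higher and 1 lower (median -0.39). The summed level of the endothelial list was 67.0 to 92.6 CPM in control, 42.6 to 51.7 in hypoxia and 43.2 to 56.3 in hypoxia + rSRGN, that of the macrophage list 223 to 238, 24.3 to 27.7 and 28.5 to 34.4, and that of the smooth muscle and pericyte list 1459 to 1733, 2151 to 2473 and 1945 to 2051. With rSRGN against hypoxia the medians were 0.06 for the fibroblast, 0.11 for the endothelial, 0.33 for the macrophage and 0.23 for the smooth muscle and pericyte list. Over all genes tested, 2.27% were called higher and 0.859% lower in that comparison. There edgeR called 1 fibroblast marker lower, 1 endothelial marker higher and 1 smooth muscle and pericyte marker higher, and of the macrophage markers 0 in either direction (2 higher and 0 lower at an unadjusted p below 0.05, 0 by DESeq2). No marker was at 0 in all libraries of a group.

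The genes whose pattern over the 9 libraries was most like that of a regulator were found by the Euclidean distance of centred log2 CPM, among 14256 genes with a mean of at least 1 CPM. For Ppargc1a they were Tnni3 (distance 0.335), the cardiac troponin I, with means of 1184, 114 and 190 CPM in control, hypoxia and hypoxia + rSRGN, Bves (0.345), a Popeye domain protein of muscle, and Pgam2 (0.356), the muscle phosphoglycerate mutase. For Esrra they were Rassf3 (0.263), the pseudogene Mpc1-ps (0.266) and Parvb (0.269), which encodes the adhesion protein β-parvin. For Perm1 they were Hjv (0.410), which encodes hemojuvelin, Popdc2 (0.427), another Popeye domain gene, and Emilin2 (0.463), which encodes an extracellular matrix protein. These distances are a description over libraries of 3 groups, in which most of the spread lies between control and the other groups.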

How the data were processed

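RNA-seq counts of 9 libraries, 3 each of control, hypoxia and hypoxia + rSRGN NMVMs, were analysed. The deposited counts are raw: the authors made poly(A)-enriched libraries, aligned them with HISAT2 (mm10) and counted fragments on exons with featureCounts 2.0.1 and GENCODE release 25 without a strand option. Every count column was used (0 left out). The text of the paper does not describe these cultures, and no method was taken from it.

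Genes were filtered with filterByExpr (16762 of 55401 kept), scaled by TMM and tested in 1 fit over all libraries with edgeR 4.0.16 (glmQLFit, glmQLFTest) in R 4.3.3, with Benjamini-Hochberg adjustment over all tested genes and calls at an adjusted p below 0.05 and 1.5-fold. The script was tested on simulated data. Replicates of a group differed by more than sampling noise (chi-square per degree of freedom 3.63 to 13.1). That spread may be technical and does not show separate isolations. Each library was counted as 1 sample. Same-numbered libraries did not deviate together (correlations -0.037 to 0.021), so no pairing was used. The genes, lists and markers were chosen with earlier results of these data known. Named were, per pathway list, the up to 2 called genes with the largest rise and fall of at least 1 CPM, and the 3 nearest genes to Ppargc1a, Esrra and Perm1. Alternatives were DESeq2 1.42.0, other scalings and filters, other call rules, a fit to the compared groups alone, a block on replicate number and leaving out each library. Promoters were searched with Python 3.11.15, and figures drawn with matplotlib 3.10.9.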

Additional observations from a re-analysis of the deposited data

How the results depend on the processing

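For the 10 regulators and 3 comparisons, 506 alternative log2 fold changes were computed, of which 469 kept direction and side of the threshold, 25 lost the call, 2 gained one (Rxra in hypoxia against control) and 10 changed sign, all for Nrf1 and Ppard where they were not called. For Nrf1 log2 fold change, hypoxia against control, these were -0.029 with at least 1 count in all and -0.068 to 0.096 with a library left out, and in hypoxia + rSRGN against control 0.043 with upper quartile scaling. With rSRGN against hypoxia Nrf1 was at -0.14 to 0.021 and Ppard at -0.048 to 0.029 with a library left out, and Ppard log2 fold change, hypoxia + rSRGN against hypoxia, was 0.0083 by DESeq2 and 0.0081 with RLE scaling. Uncalled list genes also changed sign there: Crebbp (-0.011 with upper quartile scaling), Fgf21 (-0.014 with library size alone, -0.038 with upper quartile scaling, -0.21 to 0.21 with a library left out) and Cox6c (-0.021 to 0.24 with a library left out). The number of regulators called with rSRGN against hypoxia, 4, was 2 with library size alone, 2 with upper quartile scaling, 1 in a fit of only the 2 groups, which did not test Esrrb, and 1 to 4 with a library left out. The log2 fold changes of the called genes there ran from 0.52 to 0.81 for Ppargc1a, 0.48 to 0.76 for Ppargc1b, 0.38 to 0.79 for Esrrg and 1.499 to 2.46 for Esrrb. In hypoxia against control and in hypoxia + rSRGN against control the count of 8 became 7 to 9, and 7 to 8 with a library left out. With the replicate number as a block the counts were 8, 3 (Ppargc1b was lost) and 8. Without a fold limit, 12 partner transcription factors in place of 6 and 17 coregulators in place of 11 were called in hypoxia against control, and with rSRGN against hypoxia 9 PPAR targets, 7 coregulators, 6 ERR targets, 4 partner transcription factors and 1 NRF1 target. In hypoxia + rSRGN against control, 8 partner transcription factors in place of 3 and 16 NRF1 targets in place of 10 were called. The share of all genes tested was not computed without a fold limit, so these counts cannot be set beside a background. The scaling moved the median log2 fold change of all genes in hypoxia against control from 0.05 to 0.12 with library size alone and 0.19 with upper quartile scaling. Depth limited Esrrb most, with 8 and 36 counts in the hypoxia and hypoxia + rSRGN groups.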
